A study of Mus musculus with 13 samples.

Results

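The data described here are RNA sequencing of 10 right brain hemispheres, from 5 nlsYAP5SA mice and 5 littermate controls, taken by their genotype labels out of 13 hemispheres in the series. The study asked what an active, nuclear form of the transcriptional coactivator YAP1 does when it is made in the neuronal lineage of the developing mouse brain. The nlsYAP5SA mice were NexCre +/- YAP5SAnls +/-, with Cre recombinase switching on the YAP5SAnls transgene. The controls were NexCre -/- YAP5SAnls +/-, so both groups carried the transgene and the controls lacked Cre. All mice were on a C57BL/6J background and were taken at postnatal day 11 from litters of different matings, which the labels do not assign. The hemispheres were free of olfactory bulb and cerebellum. NEX-Cre is a knock-in at Neurod6, so each nlsYAP5SA mouse had 1 Neurod6 allele replaced by Cre and each control had none. The Cre allele and the activated transgene therefore always occurred together and cannot be told apart.

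YAP1 has no DNA-binding domain and acts on genes mainly through TEAD factors, with AP-1 often bound at the same elements, and the Hippo kinases hold it in the cytoplasm. Its best known targets encode matricellular and cytoskeletal proteins, and in the adult brain it is found mainly in astrocytes, neural stem cells and vascular cells, with little in neurons. NEX-Cre is active in precursors of the excitatory neurons of the cortex and hippocampus; the hemispheres also hold interneurons, glia, vessels and meninges.

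The deposited values are estimated counts per gene, made by the authors with RSEM. They summed to between 21380744 and 25524349 in a control and to between 20871566 and 23586887 in an nlsYAP5SA mouse. Levels are given as CPM, counts scaled to library size after TMM normalization, in the order of replicates 1 to 5 of each group. A gene was called at an adjusted p of 0.05 or less in edgeR's quasi-likelihood test over 16315 genes, and log2 fold changes are nlsYAP5SA over control with their standard error (SE).

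The sex of the mice was not given, and the groups were unbalanced in it. Summed CPM of Y-linked genes was between 92.5 and 128.5 in the 5 controls and 130.9 and 135.2 in nlsYAP5SA 3 and 4. It was between 0.08988 and 0.09496 in nlsYAP5SA 1, 2 and 5, which had high Xist instead. Each result was therefore also computed with the Y-linked level as a covariate, and from only the 7 samples with Y-linked expression, which leaves 2 nlsYAP5SA mice. On 500 variable genes chosen without Xist and Y-linked genes, the leading principal component (46.1% of variance) placed the controls between -16.5 and -11.6. The nlsYAP5SA mice lay at 14.5, 16.7, 7.67, 12.5 and 18 on it, so the pair with Y-linked expression stood on the side of their genotype, with nlsYAP5SA 3 nearest to the controls.

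Of 16315 genes tested, 1761 (10.8%) were called, 1200 (7.36%) higher and 561 (3.44%) lower in nlsYAP5SA hemispheres. Xist is among those called higher. The 7.36% and 3.44% are the shares to set beside the counts called in each list below. The 2 directions differed in size. Genes called lower had a median log2 fold change of -0.33, and 20 of them fell by more than 1 on the log2 scale. Genes called higher had a median of 0.74, and 402 rose by more than 1. Every nlsYAP5SA mouse lay below every control in 412 of the 561 and above every control in 940 of the 1200. The genes called lower were also more highly expressed in controls, with a median of 8.91 RPKM against 1.28 RPKM for genes called higher and 4.01 RPKM for all genes tested. Their transcripts had a median GC content of 54.9%, against 50.6% in genes called higher and 50% in all genes tested. With an offset for GC content and length, 1425 were called higher and 854 lower by a robust loess, and 1222 and 1906 by an ordinary one.

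Fewer of the falling genes than of the rising ones held in fits with fewer samples. The call was lost without at least 1 of the 10 mice in 323 of the 561 and in 348 of the 1200. The number called lower was 315 without control 4, 351 without nlsYAP5SA 1, 340 without nlsYAP5SA 2 and 296 without nlsYAP5SA 5. With the Y-linked covariate 62 of the 561 and 475 of the 1200 were called in the same direction, and in the 7 samples with Y-linked expression 23 and 303 were. The median log2 fold change of the 561 genes was -0.28 with the covariate and -0.29 in the 7 samples, and nlsYAP5SA 3 and 4 were both below every control in 451 of them. These genes were chosen in a fit that includes nlsYAP5SA 3 and 4, so their direction in those mice is no independent check.

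Neurod6, a basic helix-loop-helix factor of excitatory neurons (ENSMUSG00000037984, chr6:55677822-55681263, minus strand), was at 93.8, 111, 93.5, 98.5 and 91.9 CPM in the controls and 54.9, 39.2, 48.3, 57 and 47.3 CPM in the nlsYAP5SA mice. The groups were apart (log2 fold change -0.98, SE 0.09, adjusted p = 2.65e-05), and in the 7 samples with Y-linked expression the log2 fold change was -0.90. Yap1 read 20.6, 20.1, 20.6, 20.1 and 22.4 CPM in the controls and 24.2, 26.8, 22.7, 24.4 and 23.3 CPM in the nlsYAP5SA mice. These values were also apart but close (log2 fold change 0.23, SE 0.06, adjusted p = 0.0361), and the call held without control 5 or without nlsYAP5SA 3 but was lost when any other mouse was left out. It was also lost under 7 of 12 other settings, among them the Y-linked covariate, where the log2 fold change was 0.19. The table counts reads on the mouse gene and does not say whether reads of the transgene are among them.

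Within 10 Mb on either side of Neurod6, 104 genes were tested and 11 were called, 5 higher and 6 lower, which is 10.6% beside 10.8% of all genes tested. The nearest of them, the lincRNA Gm3279, starts 3307 bases from Neurod6 and read 0, 0.0789, 0.0415, 0.084 and 0.0948 CPM in the controls and 0.449, 0.475, 0.871, 0.699 and 0.517 CPM in the nlsYAP5SA mice. It was near 0 in every control and above them in every nlsYAP5SA mouse (log2 fold change 3.24, SE 0.44, adjusted p = 0.000434). Under 1 CPM in all samples, Gm3279 rests on few counts, and it passed the count filter only through the nlsYAP5SA mice. Itprid1, 155631 bases away, was lower, with 1.87, 2.21, 2.49, 1.97 and 2.32 CPM in the controls and 0.989, 1.57, 1.22, 1.4 and 1.08 CPM in the nlsYAP5SA mice. Its groups did not overlap (log2 fold change -0.79, SE 0.17, adjusted p = 0.00835). These neighbours were picked after their values were seen, and whether their levels follow the Cre allele was not tested.

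Both genes of the apelin pair fell. The peptide, encoded by Apln (ENSMUSG00000037010, chrX:48025146-48034853, minus strand), was at 27.5, 29.4, 31.7, 31.9 and 31.3 CPM in the controls and 11.6, 16.9, 13.4, 17.9 and 15.3 CPM in the nlsYAP5SA mice. All 5 nlsYAP5SA values were below the lowest control (log2 fold change -1.02, SE 0.11, adjusted p = 6.39e-05), and the call held with the covariate (log2 fold change -0.96) and in the 7 samples (-0.96). Its receptor, encoded by Aplnr (ENSMUSG00000044338, chr2:85136225-85139923, plus strand), was steady in controls and scattered in nlsYAP5SA mice, at 19, 19, 19.5, 19.1 and 19.4 CPM in the controls and 4.04, 8.74, 5.88, 15.4 and 8.22 CPM in the nlsYAP5SA mice. The highest of these, nlsYAP5SA 4, was still below every control, but the call was lost with the Y-linked covariate (log2 fold change -0.86) and in the 7 samples.

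In 3 more falling genes, chosen after their values were seen, the same mouse was the highest nlsYAP5SA value. Pcdh12, a protocadherin of endothelium, was at 5.45, 5.64, 6.27, 6.21 and 6.49 CPM in the controls and 2.79, 2.85, 2.05, 4.93 and 2.44 CPM in the nlsYAP5SA mice. Prnd, which encodes the prion-like protein doppel, was at 5.03, 4.65, 4.07, 4.91 and 4.6 CPM in the controls and 1.44, 2.66, 1.52, 3.54 and 2.63 CPM in the nlsYAP5SA mice. Lum, which encodes the matrix proteoglycan lumican, was at 4.03, 4.1, 3.98, 4.11 and 4.08 CPM in the controls and 1.75, 2.33, 1.48, 3.58 and 2.26 CPM in the nlsYAP5SA mice. In each of the 3 genes nlsYAP5SA 4 was still below the controls, and each call was lost with the covariate. Their log2 fold changes were -0.99, -0.98 and -0.83, and -0.79, -0.89 and -0.69 with the covariate. Of 5 endothelial markers 2 were called lower, Cldn5 (-0.44) and Cdh5 (-0.45), and none of the 5 was at 0. All 5 were lower in mean, 4 were lower at an unadjusted p under 0.05 in edgeR and 3 were called lower by DESeq2. The 5 markers, of which Cldn5 was the most abundant per length, summed to 157, 156, 175, 182 and 178 CPM in the controls and 129, 153, 119, 147 and 148 CPM in the nlsYAP5SA mice. Whether the level of endothelial RNA has a part in the fall of these genes was not tested, and in bulk tissue fewer cells of a type and less RNA per cell cannot be told apart. The call of Cdh5 was lost without any of controls 3, 4 and 5 or nlsYAP5SA 1 and 2.

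Among other falling genes, Fibcd1, a marker of hippocampal CA1 that encodes a chitin-binding membrane protein (ENSMUSG00000026841, chr2:31813290-31846005, minus strand), was at 31, 27, 29.3, 30.3 and 30.9 CPM in the controls and 16.1, 18.2, 18.2, 15.2 and 18.6 CPM in the nlsYAP5SA mice. The spread within each group was small against the gap (log2 fold change -0.78, SE 0.07, adjusted p = 2.33e-05). The list of CA1 markers gave 2 lower of 8 (Fibcd1 and Pou3f1) and 1 higher (Ccn3, 0.28), with a median of 0.09, and 5 of the 8 had a higher mean in nlsYAP5SA mice. Robo3, a receptor that guides commissural axons, was at 5.32, 4.26, 5.98, 6.21 and 6.64 CPM in the controls and 2.61, 2.37, 2.48, 2.97 and 2.73 CPM in the nlsYAP5SA mice. Its groups were apart (log2 fold change -1.11, SE 0.13, adjusted p = 0.000176), while the other 9 genes of its list, of the medial habenula, were not called. Rxfp1, a relaxin receptor, was at 12.7, 14.3, 16.9, 15.4 and 14.7 CPM in the controls and 7.55, 9.5, 8.06, 10.1 and 8.84 CPM in the nlsYAP5SA mice. No nlsYAP5SA value reached the lowest control (log2 fold change -0.75, SE 0.10, adjusted p = 0.000411). Gm2115, a gene without an assigned function, was at 11.5, 13.8, 18.1, 18.2 and 19.4 CPM in the controls and 6.52, 9.02, 6.36, 7.38 and 7.75 CPM in the nlsYAP5SA mice, with controls 1 and 2 below the other 3 (log2 fold change -1.13, SE 0.15, adjusted p = 0.000386). These 4 genes remained called with the covariate and in the 7 samples.

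Arc, an immediate early gene of synaptic plasticity, varied mainly among the controls, at 25.9, 18.5, 40.8, 44.9 and 43 CPM in the controls and 16.1, 17.7, 17, 16.3 and 18.3 CPM in the nlsYAP5SA mice. Control 2 was close to the nlsYAP5SA mice and controls 3 to 5 were well above them (log2 fold change -1.02, SE 0.20, adjusted p = 0.00635). Kcng4, a modifying subunit of voltage-gated potassium channels, was at 3.49, 2.48, 3.28, 3.27 and 3.27 CPM in the controls and 1.3, 1.14, 1.87, 1.05 and 1.32 CPM in the nlsYAP5SA mice. All nlsYAP5SA values were below the lowest control, and the call held with the covariate but not in the 7 samples.

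The other genes of the 20 with the largest falls (called, groups apart, counts averaging 50 or more) were A330023F24Rik (a processed transcript, -1.24), Lct (lactase, -0.92), Lrrc17 (-0.85), S1pr5 (a sphingosine 1-phosphate receptor, -0.78), the repressor Hic1 (-0.76), Car15 (a carbonic anhydrase, -0.75), Egfl6 (-0.72) and Tm7sf2 (a sterol reductase, -0.71). All 20 stayed called without any 1 mouse. With the covariate 7 of the 20 were called (Neurod6, Kcng4, Gm2115, Robo3, Apln, Fibcd1 and Rxfp1), and the log2 fold changes of the other 13 ran from -1.09 in A330023F24Rik to -0.52 in Car15.

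**Figure D1:**
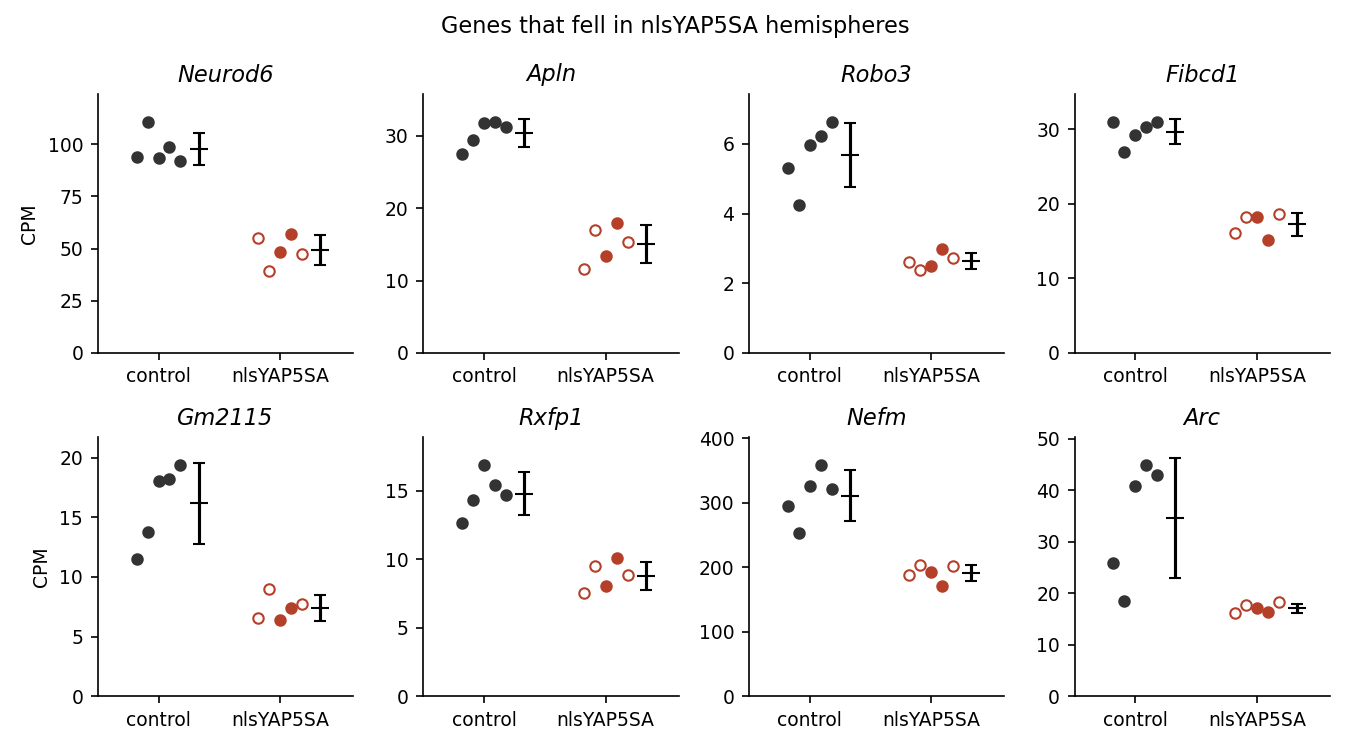
Levels of 8 genes called lower, in CPM on axes that start at 0, for each control (black) and nlsYAP5SA (red) mouse. Filled circles are mice with Y-linked expression, open circles are nlsYAP5SA 1, 2 and 5 without it, and the bar is the mean with its SD over 5 mice. In each gene the highest nlsYAP5SA value is below the lowest control, and filled and open circles are mixed.

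A further set was ranked by the loss of transcript per length, in RPKM. It held Scd2, which encodes a stearoyl-CoA desaturase, at 322 RPKM in controls and 267 RPKM in nlsYAP5SA mice, and Nefl, the light neurofilament chain, at 143 RPKM in controls and 105 RPKM in nlsYAP5SA mice. Nefl read 471, 452, 494, 507 and 490 CPM in the controls and 342, 373, 371, 323 and 362 CPM in the nlsYAP5SA mice. The highest nlsYAP5SA value was below the lowest control (log2 fold change -0.45, SE 0.06, adjusted p = 0.000213), and its call held with the covariate and in the 7 samples. Olfm1, which encodes the secreted glycoprotein olfactomedin 1, was at 173 RPKM in controls and 144 RPKM in nlsYAP5SA mice, and Cplx1, a complexin that acts in vesicle release, at 174 RPKM in controls and 147 RPKM in nlsYAP5SA mice. The rest were Gm10053 (-0.30), Cend1 (-0.27), the Cdk5 activator Cdk5r2 (-0.29), Atp5k (-0.36), the dendrin gene Ddn (-0.34), the ketone-body enzyme gene Oxct1 (-0.17) and the pseudogene Gm14303 (-0.37), besides Neurod6. Counts of Gm14303 and Gm10053 are uncertain, because RSEM divides reads between near-identical copies. In this set of 12, only Neurod6 and Nefl were called with the covariate, and 4 calls were lost without single mice: Scd2 (control 4 or nlsYAP5SA 1), Gm14303 (control 2 or nlsYAP5SA 5), Cend1 (nlsYAP5SA 5) and Oxct1 (controls 2, 4 and 5 and nlsYAP5SA 1, 2 and 5).

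The 12 lists of transcription factors held 465 genes tested, of which 45 (9.68%) were called higher and 22 (4.73%) lower, near the 7.36% and 3.44% of all genes tested. The median log2 fold change was 0.03, beside -0.01 in all genes tested. Besides Neurod6, the largest falls among called factors of these lists with a mean of at least 50 counts were in Fosb (-0.86), Foxf2 (-0.61), Dbp (-0.55) and Foxq1 (-0.54). The repressor gene Hic1 (-0.76) is not in these lists.

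Dbp, a leucine zipper factor whose level follows the circadian clock, was at 30.6, 25.2, 26, 29.2 and 27.2 CPM in the controls and 17.4, 20.1, 19.2, 19.9 and 17.9 CPM in the nlsYAP5SA mice. Its groups were apart (log2 fold change -0.55, SE 0.07, adjusted p = 0.000321). Scrt1, a neuronal zinc finger repressor of the Snail family, was at 94.7, 85.1, 98.1, 103 and 93.8 CPM in the controls and 72.9, 70.2, 66.5, 73.1 and 69 CPM in the nlsYAP5SA mice, with no overlap (log2 fold change -0.43, SE 0.06, adjusted p = 0.000301). Both remained called with the covariate and in the 7 samples. Tshz2, a teashirt factor of cortical projection neurons, was at 92, 83.3, 86.7, 98.8 and 95.4 CPM in the controls and 68.4, 70.7, 72.2, 67.5 and 79.1 CPM in the nlsYAP5SA mice, apart in the groups (log2 fold change -0.35, SE 0.06, adjusted p = 0.00249). It was called with the covariate but not in the 7 samples, where the log2 fold change was -0.39. Foxf2, a forkhead factor of brain pericytes, was at 6.82, 5.99, 7.06, 7.26 and 6.49 CPM in the controls and 3.82, 4.56, 3.4, 5.5 and 4.7 CPM in the nlsYAP5SA mice. No nlsYAP5SA value reached the controls (log2 fold change -0.61, SE 0.13, adjusted p = 0.00705), but the call was lost with the covariate (log2 fold change -0.59, SE 0.17).

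Fosb was at 2.16, 3.04, 3.49, 4.41 and 5.12 CPM in the controls and 1.84, 2.33, 1.66, 1.49 and 2.68 CPM in the nlsYAP5SA mice, and nlsYAP5SA 2 and 5 overlapped control 1. Nr4a3 was at 40.3, 47.3, 51.2, 60.1 and 56.9 CPM in the controls and 36.3, 35, 33.9, 44.7 and 39.4 CPM in the nlsYAP5SA mice, with nlsYAP5SA 4 above control 1. The call of Fosb was lost without control 4 or 5 or any of nlsYAP5SA 1 to 4, and that of Nr4a3 without control 4 or 5 or nlsYAP5SA 1 or 2. Among nuclear receptors, 4 of 36 (11.1%, beside 3.44% of all genes tested) were called lower (Nr4a3, Nr3c2, Esrra and Nr4a2). None of these 4 stayed called in all fits that leave out a mouse. The last of the 10 largest falls, in Foxq1, Pou3f1 (-0.38) and Etv4 (-0.34), were not called with the covariate, and those of Pou3f1 and Etv4 were each lost without any of 7 mice: controls 1, 2, 4 and 5 and nlsYAP5SA 2 and 5 for both, with nlsYAP5SA 4 for Pou3f1 and nlsYAP5SA 1 for Etv4.

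Rising factors included several of macrophages and of interferon and cytokine signalling. In the family of IRF and STAT factors 7 of 15 (46.7%) were called higher, beside 7.36% of all genes tested. The median was 0.49, and 0.43 with the covariate. With the covariate 3 of the 15 were called higher, and in the 7 samples 3 were. Irf8, which is required for microglia, was at 4.07, 3.82, 3.94, 3.74 and 3.32 CPM in the controls and 9.44, 8.45, 6.41, 9.82 and 9.35 CPM in the nlsYAP5SA mice. The groups were apart (log2 fold change 1.20, SE 0.12, adjusted p = 4.78e-05). Runx1, a factor of blood and myeloid cells, was at 1.46, 1.02, 1.25, 0.882 and 1.33 CPM in the controls and 2.74, 4.23, 2.61, 3.71 and 5.41 CPM in the nlsYAP5SA mice, without overlap (log2 fold change 1.65, SE 0.23, adjusted p = 0.000452). Elf4, an ETS factor, was at 1.16, 1.42, 1.91, 1.59 and 1.71 CPM in the controls and 4, 6.79, 3.22, 4.5 and 6.53 CPM in the nlsYAP5SA mice, again without overlap (log2 fold change 1.68, SE 0.22, adjusted p = 0.000375). These 3 genes were called with the covariate too.

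Cebpd, a C/EBP factor induced in inflammation and in reactive astrocytes, was at 2.66, 2.4, 1.7, 2.14 and 2.42 CPM in the controls and 8, 6.12, 6.54, 5.68 and 6.06 CPM in the nlsYAP5SA mice. It had no overlap between groups (log2 fold change 1.51, SE 0.14, adjusted p = 2.07e-05). Maff, a small Maf protein, rose (1.37), as did Glis3 (1.33), Irf5 (0.96), Cebpa (0.85), Gata2 (0.80) and the ciliogenesis factor Foxj1 (0.78). Of the 10 largest rises among called factors with a mean of at least 50 counts, 6 were called with the covariate. Irf5, Cebpa, Gata2 and Foxj1 were not. Inhibitors of helix-loop-helix factors, Id1, Id3 and Id4, were also called higher. Of 28 KLF, SP and EGR factors 3 (10.7%) were called higher (Klf4, Klf6 and Klf15) and 1 (3.57%) lower (Klf10), beside 7.36% and 3.44% of all genes tested.

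Microglial markers moved with these factors. Of 7, 6 were called higher (4 with the covariate and 2 in the 7 samples with Y-linked expression), all but P2ry12, and none was at 0. They summed to 298, 291, 337, 364 and 354 CPM in the controls and 485, 532, 412, 525 and 554 CPM in the nlsYAP5SA mice, so every nlsYAP5SA mouse was above every control. Markers of lymphocytes were at or near 0, apart from Cd4. Among astrocyte markers 4 of 7 were called higher (Gfap, 2.06, Sox9, 0.36, Gja1, 0.36 and Slc1a3, 0.31), and the 7, led by Slc1a2, summed to 2988, 3513, 5384, 4627 and 4776 CPM in the controls and 5046, 6701, 5132, 4884 and 6119 CPM in the nlsYAP5SA mice. These sums overlapped between groups. The calls of Gja1 and Slc1a3 were lost without control 2 or without nlsYAP5SA 1, 2 or 5. With the covariate 1 of the 7 astrocyte markers was called higher, and in the 7 samples with Y-linked expression 1 was. The part of these cell types in the rise of the factors was not tested.

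Across the 10 neuronal lists 561 genes were tested and the median log2 fold change was -0.04. Of these genes 19 (3.39%) were called higher and 39 (6.95%) lower, beside 7.36% and 3.44% of all genes tested. The lists go by gene family, and the 39 include genes of vessels, among them Pcdh12 and Cdh5 of endothelium and Rgs5 of pericytes. Of the 39, 21 stayed called without any 1 mouse, 7 were called with the covariate and 5 in the 7 samples. General neuronal markers gave 0 of 6 called in edgeR, 1 of them with an unadjusted p under 0.05 and 1 called lower by DESeq2, with a median of -0.12 and sums of 4673, 4602, 4445, 4560 and 4406 CPM in the controls and 4462, 4109, 4427, 4117 and 4255 CPM in the nlsYAP5SA mice, led by Syt1 or Stmn2. Of 8 excitatory neuron markers edgeR called only Neurod6, with 4 at an unadjusted p under 0.05 and 3 called lower by DESeq2, a median of -0.14 and sums of 3507, 3435, 3919, 4172 and 3843 CPM in the controls and 3452, 3463, 3651, 2903 and 3339 CPM in the nlsYAP5SA mice, led by Camk2a. Both sums overlapped between the groups.

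In the list of neuronal microtubule and growth cone genes 4 of 58 (6.9%) were called, all lower and all of neurofilaments. Of all genes tested 3.44% were called lower. Nefm, the medium chain, was at 295, 253, 326, 359 and 321 CPM in the controls and 188, 203, 193, 172 and 202 CPM in the nlsYAP5SA mice. The groups were apart by more than their spread (log2 fold change -0.70, SE 0.09, adjusted p = 0.000205). Nefh, the heavy chain, was at 83.9, 73.4, 95.7, 99.4 and 95.4 CPM in the controls and 48.1, 59.4, 57.1, 50 and 63.2 CPM in the nlsYAP5SA mice, also without overlap (log2 fold change -0.69, SE 0.10, adjusted p = 0.00049). Ina, alpha-internexin, fell less (-0.21), and its call was lost without control 4, nlsYAP5SA 2 or nlsYAP5SA 5. The 3 chains Nefl, Nefm and Nefh remained called with the covariate and in the 7 samples.

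Genes of the synaptic vesicle and release were called lower in 10 of 72 (13.9%) and higher in 1 (1.39%), with a median of -0.09 in this list. In all genes tested the shares were 3.44% and 7.36%. The 10 were Lin7b (-0.46), Syt6 (-0.25), Cplx1 (-0.24), Rph3a, Ppfia3, Unc13a, Cadps2, Rims4, Syt7 and Syn2, and 4 of them stayed called without any 1 mouse, but none was called with the covariate. The rising gene was Cplx3, a complexin of subplate neurons and the retina, at 16.2, 14.9, 14.9, 13.1 and 14.4 CPM in the controls and 19.9, 22.5, 21.3, 20.9 and 20.4 CPM in the nlsYAP5SA mice. Its groups were apart (log2 fold change 0.51, SE 0.07, adjusted p = 0.000452), and it remained called with the covariate and in the 7 samples. In the postsynaptic list edgeR called 2 of 86 lower (Arc and Homer3) and 1 higher (Camk2d), in both directions a smaller share than in all genes tested. The share of falling genes depended on the test. DESeq2 called 11 of the 86 lower and 1 higher, beside 851 lower and 1287 higher of the 16315 genes. At an unadjusted p under 0.05 in edgeR 14 were lower and 8 higher, beside 1784 and 2200.

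Of the voltage-gated sodium, calcium and HCN channels 6 of 41 (14.6%) were called lower and 2 (4.88%) higher, beside 3.44% and 7.36% of all genes tested. Hcn2, a pacemaker channel, was at 89.1, 78.9, 77.6, 82.5 and 73.7 CPM in the controls and 61.3, 65.9, 67.8, 63.6 and 63.5 CPM in the nlsYAP5SA mice, and Cacna1g, a T-type calcium channel, at 96.6, 94.9, 103, 102 and 106 CPM in the controls and 80.8, 81.4, 82.3, 89.6 and 85.2 CPM in the nlsYAP5SA mice. In both genes the groups were apart, with log2 fold changes of -0.32 and -0.26. Cacna1i, Cacna2d2 and Cacng2 were also called lower and Cacna1s higher, and none of the 8 called genes of the list was called with the covariate.

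Receptors for neuropeptides were called lower in 7 of 54 (12.96%) and higher in 3 (5.56%), beside 3.44% and 7.36% of all genes tested. Crhr1, the receptor for corticotropin-releasing hormone, was at 21.6, 20.1, 18.8, 20.4 and 16.9 CPM in the controls and 13, 10.6, 13.1, 14.8 and 9.49 CPM in the nlsYAP5SA mice. No value of the nlsYAP5SA mice reached the controls (log2 fold change -0.68, SE 0.12, adjusted p = 0.0021), but the call was lost with the covariate (log2 fold change -0.50, SE 0.13). The somatostatin receptor genes Sstr1, Sstr2 and Sstr3 and Npy2r were called lower too. Npr3, the clearance receptor for natriuretic peptides, rose, at 15.1, 15.8, 20.2, 18.9 and 20.2 CPM in the controls and 53.4, 60.7, 44.3, 56.6 and 63.5 CPM in the nlsYAP5SA mice. All nlsYAP5SA values were more than those of any control (log2 fold change 1.63, SE 0.11, adjusted p = 2.39e-06), and the call held with the covariate. Mc4r (0.62) and Rxfp3 were the other receptors called higher.

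Of the peptides themselves, 43 were tested, with 2 (4.65%) called lower (Apln and Cck) and 3 (6.98%) higher in edgeR, near the 3.44% and 7.36% of all genes tested. DESeq2 called 7 of the 43 lower and 4 higher, beside 851 lower and 1287 higher of the 16315 genes. At an unadjusted p under 0.05 in edgeR 9 were lower and 7 higher, beside 1784 and 2200. Cck, which encodes cholecystokinin, had 111, 104, 97.7, 110.5 and 102 CPM in the controls and 87, 80.1, 95.5, 77.4 and 93.4 CPM in the nlsYAP5SA mice. The groups were apart by a small margin (log2 fold change -0.28, SE 0.07, adjusted p = 0.0186), and the call was lost without control 4 or without nlsYAP5SA 2. Adcyap1, which encodes the peptide PACAP, was at 29.1, 28, 24.2, 24.9 and 27.3 CPM in the controls and 38, 34.7, 38.6, 36.1 and 34.8 CPM in the nlsYAP5SA mice. It was higher in every nlsYAP5SA mouse (log2 fold change 0.45, SE 0.06, adjusted p = 0.000636) and remained called with the covariate. Edn1 (1.09), which encodes endothelin 1, and the granin gene Scg2 (0.36) were called higher as well.

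The other neuronal lists are given beside the 7.36% higher and 3.44% lower of all genes tested. Monoamine and acetylcholine genes gave 3 lower of 63 (Chrm3, -0.33, Htr7 and Chrna4, -0.25) and 4 higher (Adrb3, Drd5, Htr1a, 0.35, and Adra2a). These were 4.76% and 6.35% in edgeR, near the shares of all genes tested. DESeq2 called 7 of the 63 lower and 6 higher, beside 851 lower and 1287 higher of the 16315 genes. RGS proteins gave 3 lower of 18 (Rgs5, Rgs16 and Rgs11), or 16.7%, and 0 higher. Of these 3 genes, Rgs5 marks pericytes. Protocadherins and classical cadherins gave 2 lower (Pcdh12 and Cdh5, both of endothelium) and 5 higher of 85. These were 2.35% and 5.88%, both smaller shares than in all genes tested. Of the 41 ion pump and vacuolar ATPase genes, edgeR called 0, with 4 at an unadjusted p under 0.05 and 0 called by DESeq2.

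**Figure D2:**
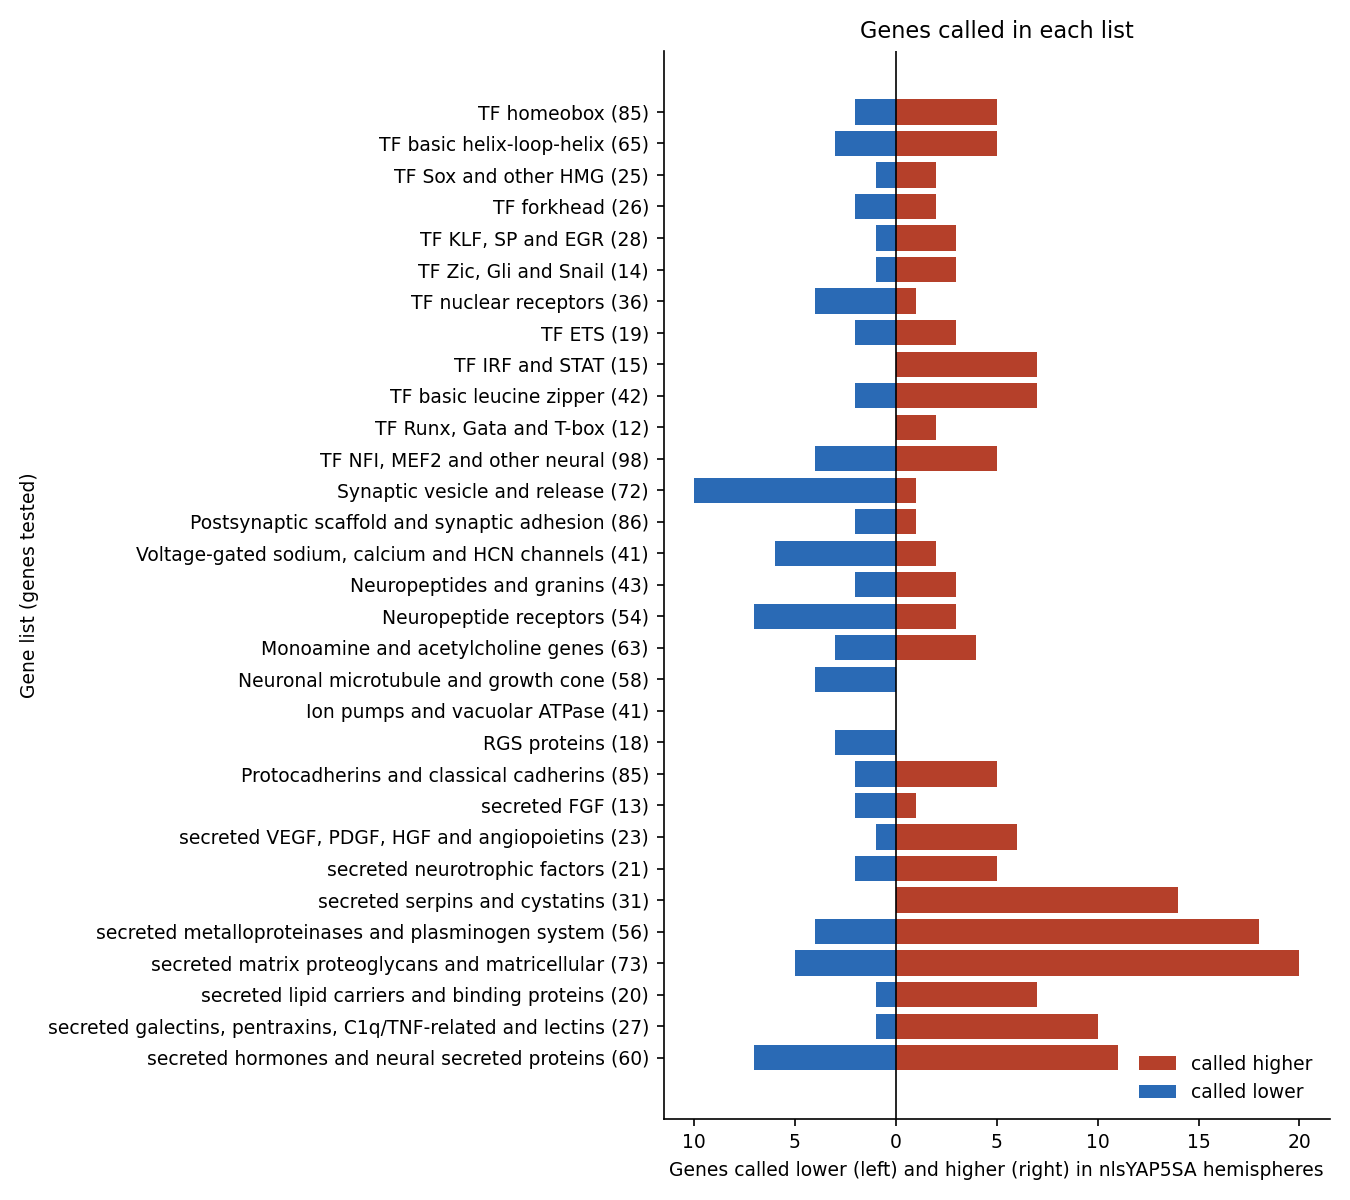
Number of genes called lower (bars to the left) and higher (bars to the right) in nlsYAP5SA hemispheres, for each list of transcription factors (TF), neuronal genes and secreted factors, with the genes tested in parentheses. Serpins, cystatins and related inhibitors reach 14 higher of 31, and synaptic vesicle genes 1 higher and 10 lower of 72.

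Secreted factors held a larger share of genes called higher than the lists of transcription factors or of neuronal genes. Of 324 tested in 9 lists, 92 (28.4%) were called higher and 23 (7.1%) lower, beside 7.36% and 3.44% of all genes tested. Their median log2 fold change was 0.13, and with the covariate 50 were called higher and 4 lower. Among serpins, cystatins and related inhibitors 14 of 31 (45.2%) were called higher, with a median of 0.29.

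A2m, which encodes the protease inhibitor alpha-2-macroglobulin (ENSMUSG00000030111, chr6:121635376-121679227, plus strand), was at 4.49, 5.01, 3.9, 5.67 and 5.69 CPM in the controls and 31.4, 37.5, 25.1, 28.9 and 32.5 CPM in the nlsYAP5SA mice. The groups were far apart (log2 fold change 2.65, SE 0.13, adjusted p = 1.77e-07). Serpina3n, a serpin of reactive astrocytes, was at 10.4, 9.19, 7.84, 8.61 and 32.9 CPM in the controls and 74.8, 83.9, 70.1, 68.6 and 104 CPM in the nlsYAP5SA mice. Control 5 stood above the other controls and below every nlsYAP5SA mouse (log2 fold change 2.55, SE 0.35, adjusted p = 0.000483). Over the other fits, with a mouse left out or another setting, the log2 fold change ran from 2.33 to 3.15.

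Of the matrix proteoglycans and matricellular proteins 20 of 73 (27.4%) were called higher and 5 (6.85%) lower, with a median of 0.20. Thbs1, which encodes thrombospondin 1 (ENSMUSG00000040152, chr2:118111876-118127133, plus strand), an astrocytic factor that promotes synapse formation, was at 8.31, 8.99, 12.1, 12.7 and 12.4 CPM in the controls and 59.7, 94.6, 37.8, 97.1 and 77.1 CPM in the nlsYAP5SA mice. The lowest nlsYAP5SA value, in mouse 3, was above every control (log2 fold change 2.75, SE 0.24, adjusted p = 1.59e-05). Spp1, which encodes osteopontin, was at 4.91, 4.53, 4.94, 6.26 and 5.03 CPM in the controls and 28, 49.1, 24.2, 59.2 and 55.9 CPM in the nlsYAP5SA mice, with nlsYAP5SA 1 and 3 below the other 3 (log2 fold change 3.08, SE 0.25, adjusted p = 9.12e-06).

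The 5 matrix genes that fell were Lum, Hapln4, Mmrn2, Vwa1 and Vtn. Hapln4, a link protein of perineuronal nets, was at 11, 10.4, 14.8, 16.6 and 14.9 CPM in the controls and 7.33, 9.07, 7.19, 6.68 and 11 CPM in the nlsYAP5SA mice. The highest nlsYAP5SA value reached the level of controls 1 and 2 (log2 fold change -0.72, SE 0.16, adjusted p = 0.0135), and the call was lost when only nlsYAP5SA 1, 2 and 5 were set against the controls. Vtn, which encodes vitronectin and is expressed by pericytes, was at 62.9, 57.2, 58.6, 67.3 and 63.4 CPM in the controls and 44.7, 51.2, 41.4, 48.9 and 50 CPM in the nlsYAP5SA mice, without overlap (log2 fold change -0.39, SE 0.07, adjusted p = 0.00236). These 2 of the 10 secreted factors with the largest falls were called with the covariate and in the 7 samples.

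Metalloproteinases and genes of the plasminogen system gave 18 higher and 4 lower of 56, among them Timp1, Timp2, Timp3, Plat, Mmp2 and Mmp14 on the rising side and Klk8 (-0.75), Adamtsl2 (-0.51), Adamts10 (-0.38) and Mmp15 on the falling side. Klk8 was at 2.87, 3, 2.78, 2.69 and 2.23 CPM in the controls and 2.02, 1.14, 1.44, 2.36 and 1.08 CPM in the nlsYAP5SA mice, with overlap between the groups. Its call was lost without control 1, 2, 3 or 4 or nlsYAP5SA 2, 3 or 5, and that of Adamts10 without any mouse but nlsYAP5SA 4.

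Among growth factors of the VEGF, PDGF, HGF and angiopoietin families 6 of 23 were called higher, Angpt1, Angpt4, Csf1, Pdgfc, Pdgfd and Vegfd. Il34, which like Csf1 encodes a ligand of the microglial receptor CSF1R, was the 1 called lower, at 31.7, 27.8, 29, 31.9 and 31.1 CPM in the controls and 22.3, 19.7, 24.6, 23 and 26.2 CPM in the nlsYAP5SA mice. All nlsYAP5SA values were below the controls (log2 fold change -0.39, SE 0.08, adjusted p = 0.00635), but the call was lost with the covariate (log2 fold change -0.35, SE 0.11). Neurotrophic factors gave 5 higher of 21 (Clcf1, Cntf, Nrtn, Ntf3 and Metrnl) and 2 lower (Metrn, -0.48, and Ptn). With the covariate 1 of the 21 was called higher and 0 lower, and in the 7 samples 0 were called in either direction. FGF genes gave 1 higher (Fgf2) and 2 lower (Fgf11 and Fgf13) of 13, and none of these 3 stayed called in all fits that leave out a mouse.

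In the group of galectins, pentraxins and C1q/TNF-related proteins 10 of 27 were called higher and 1 lower (Mfge8). Lgals3, which encodes galectin 3, was at 1.04, 0.512, 0.747, 0.504 and 0.521 CPM in the controls and 4.27, 4.94, 1.96, 3.84 and 4.42 CPM in the nlsYAP5SA mice. C1qtnf3, a C1q/TNF-related protein, was at 0.499, 0.315, 0.498, 0.336 and 0.427 CPM in the controls and 5.03, 2.99, 4.01, 5.42 and 4.42 CPM in the nlsYAP5SA mice. Ptx3, a long pentraxin, was at 1.21, 1.18, 1.2, 1.55 and 0.853 CPM in the controls and 5.57, 5.55, 4.36, 5.68 and 6.67 CPM in the nlsYAP5SA mice. In all 3 genes the groups were apart, with log2 fold changes of 2.53 for Lgals3 and 3.38 for C1qtnf3. Lyz2, the lysozyme gene of myeloid cells, rose too (2.17).

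Of hormones and other neural secreted or surface proteins 11 of 60 (18.3%) were called higher and 7 (11.7%) lower. Fst, which encodes the activin antagonist follistatin, was at 0.915, 1.22, 0.54, 0.966 and 0.806 CPM in the controls and 4.4, 5.79, 4.23, 4.72 and 4.61 CPM in the nlsYAP5SA mice, without overlap (log2 fold change 2.40, SE 0.18, adjusted p = 5.71e-06). Its relatives Fstl1 and Fstl3 were called higher as well. The 7 called lower were Lgi2, Lgi3, Itm2a, Olfm1, Gdf11, Ntng2 and Rtn4rl1. Lipid carriers and binding proteins gave 7 higher (Lcn2, Cp, Apod, Lcat, Lipg, Clu and Apoe) and 1 lower (Lpl) of 20. With the covariate 3 of these 20 were called higher and in the 7 samples 1 was, with 0 lower in both. Their median of 0.23 was 0.05 in both of those fits. Among called secreted factors with a mean of at least 50 counts, the 10 with the largest rises were all called with the covariate and in the 7 samples.

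**Figure D3:**
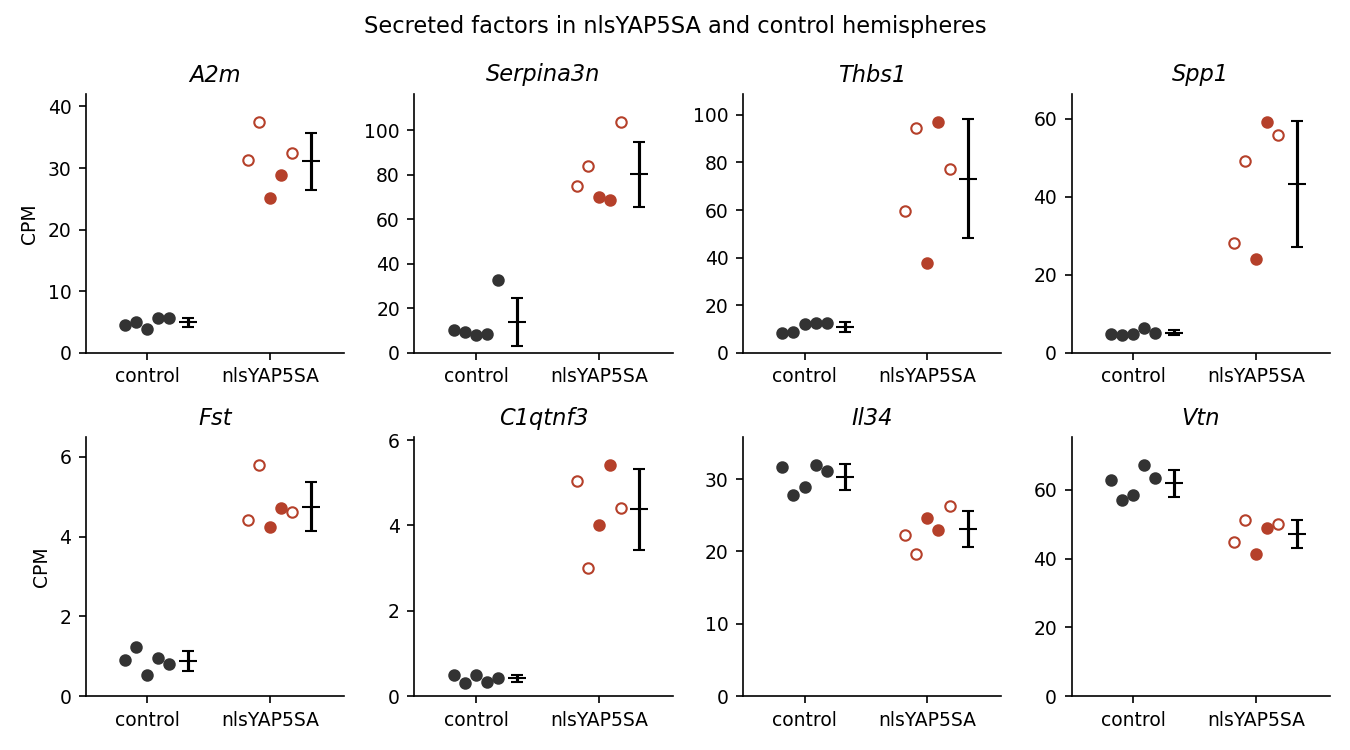
Levels of 6 secreted factors called higher and 2 called lower (Il34 and Vtn), in CPM on axes that start at 0, for each control (black) and nlsYAP5SA (red) mouse. Filled circles are mice with Y-linked expression, open circles are nlsYAP5SA 1, 2 and 5 without it, and the bar is the mean with its SD over 5 mice. The groups do not overlap in these genes, and control 5 is the highest control for Serpina3n.

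The 20 genes with the largest rises were picked from those called whose groups were apart and whose counts averaged 50 or more. Among them, Ccn5, a matricellular protein of the CCN family, was at 0.208, 0.118, 0.415, 0.21 and 0 CPM in the controls and 13.6, 12.9, 13.1, 12.8 and 15.6 CPM in the nlsYAP5SA mice. The controls were at or near 0 (log2 fold change 6.09, SE 0.27, adjusted p = 1.14e-07). Lox, which encodes the collagen cross-linking enzyme lysyl oxidase, was at 3.91, 5.68, 7.1, 6.93 and 6.78 CPM in the controls and 49.6, 58.8, 30.1, 37.9 and 49.2 CPM in the nlsYAP5SA mice, and Vgll3, a vestigial-like partner of TEAD factors, at 2.25, 3.15, 3.73, 3.4 and 3.37 CPM in the controls and 21.5, 22.8, 18, 23.6 and 23.9 CPM in the nlsYAP5SA mice. Neither gene overlapped between groups (2.89 and 2.79).

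The imprinted lincRNA H19 was at 6.82, 8.83, 6.18, 7.14 and 7.39 CPM in the controls and 34.8, 53.1, 28.7, 73.3 and 72.9 CPM in the nlsYAP5SA mice. Cybb, the catalytic subunit of the phagocyte NADPH oxidase, was at 0.249, 0.512, 0.789, 0.84 and 0.569 CPM in the controls and 3.6, 6.27, 2.48, 6.24 and 7.38 CPM in the nlsYAP5SA mice. Both were above the controls in every nlsYAP5SA mouse (2.85 and 3.12). Cd52 (2.79) and Ms4a6c (2.58), of leukocytes, and Arsi (2.71), a sulfatase, rose alongside. Sult1a1, a sulfotransferase, was at 2.66, 2.48, 2.82, 2.77 and 2.32 CPM in the controls and 22.2, 20.8, 19.3, 2.88 and 15.9 CPM in the nlsYAP5SA mice. Here nlsYAP5SA 4 was level with the controls and the other 4 were far above (log2 fold change 2.63, SE 0.41, adjusted p = 0.00112), and of the 20 genes with the largest rises it alone was not called in the 7 samples.

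Lists of metabolism and cell stress gave mixed results. Glycolysis and lactate genes gave 4 higher (13.8%) and 2 lower (6.9%) of 29. Slc2a1, the glucose transporter of endothelium and astrocytes, was at 44.7, 38.9, 41.2, 40.7 and 43.9 CPM in the controls and 72.6, 70.5, 67.2, 40 and 84.2 CPM in the nlsYAP5SA mice. Again nlsYAP5SA 4 lay among the controls (log2 fold change 0.67, SE 0.15, adjusted p = 0.0109), and the call was lost with the covariate. Entry into and enzymes of the TCA cycle gave 2 higher (Idh2, 0.68, and Pcx) and 2 lower (Idh3b and Dlst) of 33. This was 6.06% in each direction, beside 7.36% and 3.44% of all genes tested. The list leaned lower by other measures. Of the 33 genes 27 were lower in mean, beside 8372 of 16315 genes tested, with a median of -0.09. DESeq2 called 7 of them lower and 2 higher, beside 851 and 1287 of the 16315 genes.

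Of the chaperones 6 of 75 (8%) were called higher and 4 (5.33%) lower, near the 7.36% and 3.44% of all genes tested. The rising genes included small heat shock proteins, Cryab at 26.4, 26.1, 25.8, 26.4 and 24.6 CPM in the controls and 49.2, 41.6, 45.8, 38.6 and 43.3 CPM in the nlsYAP5SA mice and Hspb8 at 8.23, 8.44, 7.01, 8.1 and 8.11 CPM in the controls and 22.9, 18.9, 17.1, 16 and 17 CPM in the nlsYAP5SA mice. Both were apart between groups (0.76 and 1.20) and were called with the covariate. Hsf1, the heat shock transcription factor, was lower (-0.47), as were Hsph1, Dnajb5 and Hspd1. The unfolded protein response gave 2 higher (P4hb and Dnajc3) and 1 lower (Calr) of 29, or 6.9% and 3.45%, near the shares of all genes tested. The proteasome gave 3 higher of 42, or 7.14%, also near that share, and 0 lower. Of these 3 genes, Psmb8 (1.51) and Psmb9 are subunits of the immunoproteasome.

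Genes of glutathione, antioxidant defence and iron gave 12 higher (23.1%) and 1 lower (1.92%) of 52. The 1 called lower was Slc40a1, the iron exporter ferroportin, at 23.2, 24.4, 26.9, 28.8 and 27.4 CPM in the controls and 13.7, 18.9, 13.8, 23.5 and 17.9 CPM in the nlsYAP5SA mice. The highest nlsYAP5SA value overlapped the lowest control (log2 fold change -0.57, SE 0.14, adjusted p = 0.0164), and the call was lost with the covariate. The rising ones included Cybb, Cyba, Ncf1 and Ncf4 of the phagocyte oxidase. Of 367 zinc finger genes named Zfp, 9 (2.45%) were called higher and 4 (1.09%) lower, beside 7.36% and 3.44% of all genes tested.

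Regional markers were read to check the dissection. In 124 tested genes of 12 brain region lists 6 (4.84%) were called higher and 12 (9.68%) lower, beside 7.36% and 3.44% of all genes tested. Their sums lay between 6223 and 7099 CPM in the controls and between 6442 and 6765 CPM in nlsYAP5SA mice, led by Slc17a7 or Mef2c of the cortical layers. Midbrain and hindbrain markers had a median of -0.59, with 9 of 10 lower in mean and sums of 43.3, 32.9, 35.8, 29.1 and 33.9 CPM in the controls and 10.1, 26.7, 30.4, 17 and 28.7 CPM in the nlsYAP5SA mice, which overlapped; edgeR called 0, with 4 at an unadjusted p under 0.05 and 2 called lower by DESeq2. Olfactory bulb markers summed to 76, 65.5, 41, 39.1 and 43.1 CPM in the controls and 43.3, 43.9, 55.9, 67.2 and 47.6 CPM in the nlsYAP5SA mice. Markers of the pituitary summed to no more than 2.465 CPM in any sample, with Fshb at 0 in all 10. Atoh1, of the cerebellum, and the hindbrain gene Hoxb3 were at 0 in all 10 samples too. Hippocampal CA2 and CA3 gave 3 lower (Grik4, -0.40, Coch, -0.37, and Ptpn5, -0.32) and 2 higher of 10. With the covariate 0 genes of this list were called in either direction, and in the 7 samples with Y-linked expression 0 were.

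Of 6 oligodendrocyte markers, none of them at 0, edgeR called 0, with 5 at an unadjusted p under 0.05 and 1 called lower by DESeq2, with a median of -0.54. They summed to 2284, 2093, 3468, 3370 and 3255 CPM in the controls and 1710, 2894, 2270, 1338 and 2135 CPM in the nlsYAP5SA mice, so both groups were wide and overlapped. Markers of choroid plexus summed to 241, 12, 11.4, 14.1 and 147 CPM in the controls and 283, 314, 161, 14 and 73.7 CPM in the nlsYAP5SA mice, with Ttr at 221, 0.828, 1.25, 2.14 and 129.5 CPM in the controls and 257, 278, 138, 0.786 and 55.4 CPM in the nlsYAP5SA mice, and high and low samples occurred in both groups. Of the 7 markers 1 was called, Folr1, higher at 2.45, 0.434, 0.249, 0.168 and 1.42 CPM in the controls and 5.35, 4.56, 4.36, 2.88 and 4.51 CPM in the nlsYAP5SA mice, and its call was lost with the covariate.

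Of the other cell types, oligodendrocyte precursors gave 2 lower of 5 (Olig1, -0.29, and Gpr17), with sums of 582, 562, 622, 639.5 and 628 CPM in the controls and 512, 594, 507, 512 and 574 CPM in the nlsYAP5SA mice led by Gpr17. Pericytes and smooth muscle gave 2 lower (Rgs5, -0.58, and Kcnj8) and 1 higher (Acta2, 1.23) of 6, with sums of 244, 290.4, 311, 303 and 303 CPM in the controls and 195, 260.5, 169.7, 267 and 249 CPM in the nlsYAP5SA mice led by Rgs5. Meningeal fibroblasts gave 1 lower (Lum) and 1 higher (Col1a2) of 5, with sums of 225, 261, 301, 317 and 303 CPM in the controls and 354, 378, 276, 353 and 399.7 CPM in the nlsYAP5SA mice led by Pdgfra. The sums of these 3 lists overlapped between the groups. Inhibitory neurons gave 1 lower (Pvalb) of 8, ciliated ependyma 1 higher (Foxj1) of 6, neural progenitors 1 higher (Pax6) of 7, and blood macrophages and neutrophils 2 higher (Ccr2 and Cd163) of 4 tested. Ccr2 was near 0 in controls, at 0.0831, 0.473, 0, 0.21 and 0.19 CPM. In nlsYAP5SA mice it was at 0.494, 4.415, 0.261, 1.135 and 1.175 CPM, with overlap and mouse 2 far above the rest. Ly6c2, S100a8 and S100a9 of the same list were too low to be tested. Calls of Gpr17, Kcnj8, Col1a2, Pvalb and Cd163 were each lost without at least 1 of nlsYAP5SA 1 and nlsYAP5SA 5.

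Promoter sequence was read for genes whose change leads the results, from RefSeq on GRCm38.p6, over the 250 bases before each start. The letters searched on both strands were GGAATG (TEAD), TGANTCA (AP-1), TGACGTCA (cAMP response element) and CAGATG (an E-box of neuronal helix-loop-helix factors). Among 15299 promoters of 11959 genes tested, 11% held GGAATG, 4.48% TGANTCA, 2.44% TGACGTCA and 10.4% CAGATG. In 351 promoters of genes called higher with a log2 fold change of at least 1, the shares were 14%, 13.7%, 1.42% and 13.1%. In 78 promoters of genes called lower with a log2 fold change of at most -0.5, they were 7.69%, 2.56%, 1.28% and 8.97%. The median GC content of these promoters was 59.6%, 53.2% and 58.2% in the same order, and its part in the shares was not tested.

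The sequences are of 4 genes that rose and 2 that fell, picked after their matches were seen, with any match in capitals. Other genes that rose, such as Lrp2, Spp1 and Sult1a1, held none of the 4 motifs, and the falling genes Car15, Oxct1 and Prnd (1 of its 2 promoters) held GGAATG. Shown are Ankrd1 (chr19:36119845-36120094, minus strand) with 2 matches to GGAATG, Vgll3 (chr16:65814939-65815188, plus strand) and C1qtnf3 (chr15:10952082-10952331, plus strand) with 1 each, Cybb (chrX:9469325-9469574, minus strand) with 1 match to TGANTCA, and Apln (chrX:48034854-48035103, minus strand) and Neurod6 (chr6:55681264-55681513, minus strand) with none. The match in Vgll3 reads CATTCC, the same letters on the other strand.
Ankrd1: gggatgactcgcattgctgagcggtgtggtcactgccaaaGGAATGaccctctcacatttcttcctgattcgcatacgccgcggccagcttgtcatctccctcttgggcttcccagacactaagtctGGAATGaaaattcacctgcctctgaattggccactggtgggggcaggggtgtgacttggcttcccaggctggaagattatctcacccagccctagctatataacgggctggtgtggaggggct
Vgll3: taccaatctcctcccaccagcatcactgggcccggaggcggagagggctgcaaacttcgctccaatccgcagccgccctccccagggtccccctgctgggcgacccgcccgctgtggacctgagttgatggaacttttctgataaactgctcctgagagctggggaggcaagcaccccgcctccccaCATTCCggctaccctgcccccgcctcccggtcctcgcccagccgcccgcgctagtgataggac
C1qtnf3: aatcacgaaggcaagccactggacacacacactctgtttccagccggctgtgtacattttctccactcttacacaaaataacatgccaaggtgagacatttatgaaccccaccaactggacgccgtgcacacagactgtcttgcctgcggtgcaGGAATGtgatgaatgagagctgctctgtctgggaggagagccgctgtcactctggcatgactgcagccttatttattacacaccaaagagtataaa
Cybb: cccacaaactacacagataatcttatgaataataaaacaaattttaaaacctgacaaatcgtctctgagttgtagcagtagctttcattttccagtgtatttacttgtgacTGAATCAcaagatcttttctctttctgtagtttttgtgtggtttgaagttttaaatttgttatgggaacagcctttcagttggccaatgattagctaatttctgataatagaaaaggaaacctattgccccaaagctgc
Apln: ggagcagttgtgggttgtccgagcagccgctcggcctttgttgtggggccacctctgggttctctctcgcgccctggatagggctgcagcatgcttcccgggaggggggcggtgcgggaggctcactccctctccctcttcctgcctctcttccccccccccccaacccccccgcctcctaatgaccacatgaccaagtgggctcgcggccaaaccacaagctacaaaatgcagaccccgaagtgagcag
Neurod6: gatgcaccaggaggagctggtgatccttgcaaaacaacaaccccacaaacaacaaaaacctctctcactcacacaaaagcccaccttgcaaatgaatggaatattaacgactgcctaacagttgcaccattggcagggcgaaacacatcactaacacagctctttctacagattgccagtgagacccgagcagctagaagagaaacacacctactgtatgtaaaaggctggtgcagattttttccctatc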

How the data were processed

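RNA of 10 hemispheres was sequenced as mRNA libraries. The authors used CutAdapt, STAR on GRCm38 and RSEM 1.3.0, and deposited an estimated count for each of 48795 genes, not normalized. No strand setting is stated, so overlapping and antisense genes are uncertain. Positions and lengths are from a later annotation, GENCODE M21. Estimated counts were rounded and tested in R 4.3.3 with edgeR 4.0.16 (TMM; filterByExpr, minimum count 10, minimum total 15; quasi-likelihood test, two-sided, Benjamini-Hochberg). Python 3.11.15 with pandas 2.3.3, numpy 2.4.6 and matplotlib 3.10.9 made tables and plots; limma 3.58.1 and DESeq2 1.42.0 served alternatives. Named genes were Yap1, Neurod6, the 20 largest falls and 20 largest rises (called, mean of 50 counts or more, groups apart), 12 falls by RPKM, 10 transcription factors and 10 secreted factors in each direction, and up to 4 called genes per list and direction. Other genes were named after their values were seen. Lists and members were chosen with earlier results of these data known, and 3 of 70 lists and 2 of 22 alternatives, those dividing samples by Y-linked expression, were added after the data were seen. In a count of 0, up to 3 counts are possible, which covers counting error only. Galr3 and Tafa1 had no entry. Some genes and 1 list are not reported here.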

Additional observations from a re-analysis of the deposited data

Results flagged for a closer look

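In 20 cases, of 404 groups of 5 values tested for the genes reported, 1 sample lay farther from the rest of its group than the spread of the others allows, by Dixon's test. Chance gives about 1 in 20 such groups. The cases were spread over all 10 mice, with between 1 and 4 in each.

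Among the controls, control 5 was apart in Serpina3n (32.9 CPM, the others 7.84 to 10.4), Htr1a (20 CPM, the others 18.3 to 18.8), Irf5 (2.04 CPM, the others 2.48 to 2.66) and Yap1 (22.4 CPM, the others 20.1 to 20.6). Control 2 was apart in Kcng4 (2.48 CPM, the others 3.27 to 3.49) and Syt6 (37.2 CPM, the others 33.3 to 34.4). Control 1 was apart in Lyz2 (5.82 CPM, the others 3.65 to 4.26) and Rgs5 (187 CPM, the others 226 to 235). Control 3 was apart in Hspb8 (7.01 CPM, the others 8.1 to 8.44) and Slc25a34 (3.07 CPM, the others 4.07 to 4.31), and control 4 in Spp1 (6.26 CPM, the others 4.53 to 5.02).

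Among the nlsYAP5SA mice, mouse 4 was apart in Pcdh12 (4.93 CPM, the others 2.05 to 2.85), Slc38a5 (9.26 CPM, the others 2.35 to 3.85) and Scg2 (261 CPM, the others 299 to 305). Mouse 2 was apart in Mrpl42 (23.1 CPM, the others 26.8 to 28.1) and Pcdhga10 (23.5 CPM, the others 21.2 to 21.8). Mouse 3 was apart in Irf5 (3.14 CPM, the others 5.07 to 5.46) and Timm10b (14.1 CPM, the others 12.2 to 12.7), mouse 1 in Chrm3 (28.6 CPM, the others 34.4 to 35.5) and mouse 5 in Ccn5 (15.6 CPM, the others 12.8 to 13.6).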

How the results depend on the processing

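No named gene changed direction under any of 22 alternatives that tested it (8 of 205 were not tested at 10 counts in every sample), and 143 of 205 stayed called in every fit with a mouse left out. The number of genes called was 1761, and 542 with the Y-linked covariate, 334 in the 7 samples with Y-linked expression and 3128 with an ordinary loess offset for GC content and length. Those called higher were 1200, and 476 with the covariate, 308 in the 7 samples and 1222 with the ordinary loess offset. Those called lower were 561, and 303 with the replicate block, 66 with the covariate, 26 in the 7 samples, 856 with DESeq2's Wald test, 854 with a robust loess offset and 1906 with the ordinary one, which moved the median of all genes to -0.06. With a mouse left out, between 1210 and 1891 were called, 914 to 1287 higher and 296 to 641 lower. The cause of these shifts was not tested. Of 205 named genes, 129 were not called with the covariate, 145 in the 7 samples and 45 with the replicate block. The replicate numbers do not pair the groups: mice of the same number correlated between -0.268 and 0.249. Of 1650 list medians, 67 moved by more than the spread between replicates, 19 of them with the ordinary loess offset, under which the median of the transcription factor lists turned negative. The 2 fits divided by Y-linked expression were added after the data were seen. Depth limits genes under about 1 CPM, for which a sample holds few counts.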

Other observations

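Solute carriers, a list drawn up after the values were seen, gave 18 higher (7.23%, beside 7.36% of all genes tested) and 19 lower (7.63%, beside 3.44%) of 249 tested. Slc7a10, the astrocytic carrier of D-serine and small neutral amino acids, was at 33.6, 27.7, 29.5, 30.6 and 31.3 CPM in the controls and 20.1, 21.6, 20.6, 19.9 and 21.2 CPM in the nlsYAP5SA mice. The groups were apart (log2 fold change -0.56, SE 0.06, adjusted p = 9.12e-05), and the call held with the Y-linked covariate and in the 7 samples with Y-linked expression. Slc13a3, a carrier of dicarboxylates, was at 30, 28.7, 30.9, 31.1 and 32.9 CPM in the controls and 17, 18, 16.8, 24.7 and 19.2 CPM in the nlsYAP5SA mice, also without overlap (log2 fold change -0.68, SE 0.10, adjusted p = 0.000653). On the rising side were Slc11a1 (1.57) and Slc15a3 (1.33), of phagocyte lysosomes, and Slc43a3 (1.16). The glycine transporter gene Slc6a9 and the GABA transporter gene Slc6a11 were also among those called lower.

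Mitochondrial ribosomal proteins, also listed after their values were seen, had lower mean levels in nlsYAP5SA mice in 74 of 78 genes, beside 8372 of 16315 genes tested, with a median log2 fold change of -0.15. Their sums overlapped, at 2159, 1983, 1689, 1836 and 1749 CPM in the controls and 1779, 1572, 1827, 1684 and 1628 CPM in the nlsYAP5SA mice, with controls 1 and 2 the highest. Only 5 (6.41%, beside 3.44% of all genes tested) were called, all lower. Each named call, Mrpl34, Mrpl12, Mrpl42 and Mrpl3, was lost without nlsYAP5SA 2. Mitochondrial protein import gave 5 lower (20.8%, beside 3.44% of all genes tested) and 0 higher of 24 in edgeR. Of the 5, 1 stayed called without any 1 mouse. With the covariate 0 genes of this list were called lower, and in the 7 samples 0 were. Tomm40l, an outer membrane channel protein, was at 52.8, 52.9, 43.4, 46.4 and 45.7 CPM in the controls and 33.6, 30.9, 37.2, 38.8 and 32.5 CPM in the nlsYAP5SA mice, without overlap (log2 fold change -0.48, SE 0.08, adjusted p = 0.00164), and its call was lost with the covariate.

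In several genes nlsYAP5SA 4 stood on the control side of its group. Slc38a5, a glutamine transporter gene of brain endothelium, was at 11.4, 8.79, 11.2, 10.5 and 10.5 CPM in the controls and 2.61, 3.85, 2.35, 9.26 and 3.48 CPM in the nlsYAP5SA mice. Slc25a34 was at 4.07, 4.22, 3.07, 4.07 and 4.31 CPM in the controls and 9.39, 8.07, 8.8, 3.45 and 7.47 CPM in the nlsYAP5SA mice. Aldoc, an aldolase of astrocytes, was at 346, 306, 332, 359 and 350.3 CPM in the controls and 549, 534, 562, 288 and 473 CPM in the nlsYAP5SA mice. The call of Aldoc was lost without any mouse but nlsYAP5SA 4. In Sult1a1 and Slc2a1 the same mouse had the lowest nlsYAP5SA value. It also had the highest sum of the 7 neural progenitor markers, led by Sox2, at 129, 126, 129, 127 and 125 CPM in the controls and 112, 117, 106, 178 and 135 CPM in the nlsYAP5SA mice, with the cycling gene Mki67 at 12.6, 17.2, 21.5, 17.3 and 16.4 CPM in the controls and 11.2, 15.2, 9.76, 33.5 and 23 CPM in the nlsYAP5SA mice. These genes were chosen after their values were seen.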
